A study of Homo sapiens with 8 samples.

Results

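ATF4 is the transcription factor at the centre of the integrated stress response. Kinases that sense amino acid shortage, misfolded protein, haem shortage or double-stranded RNA phosphorylate the translation factor eIF2alpha, which lowers protein synthesis in general while the ATF4 messenger RNA is translated better. ATF4 then pairs with C/EBP family proteins on DNA and raises genes of amino acid synthesis and transport, tRNA charging and redox control, and with prolonged stress those of cell death. Oxygen shortage is one of the stresses known to engage this response in tumour cells. The protein level of ATF4 is set largely by translation, so its messenger RNA is only part of its regulation.

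The 10 genes described here are ATF4 and its close relative ATF5, the partner factors CEBPB and CEBPG, the induced factors DDIT3, ATF3 and JDP2, and the effectors TRIB3, CHAC1 and PPP1R15A. They were taken by symbol from the 19583 rows of the expression table, each symbol was found, and all 10 passed the filter on low values, an average of 1 or more across libraries. They were chosen by name for their place in this pathway when the measured values of every comparison were already known, and no numerical threshold was applied. The differences between hairpin labels, as the largest of these measured values, are treated as having chosen the members and are given as a description, with intervals and without p-values. The p-values for oxygen and for the interaction come from a fit over all genes, and none of them is independent support for the choice of the list.

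Polyadenylated RNA was sequenced from MDA-MB-231, an established human breast cancer cell line without estrogen and progesterone receptors. There were 4 groups of 2 libraries each: cells labelled with a short hairpin RNA against CHD4 (shCHD4) after 24 hours at 1% O2, shCHD4 cells at 20% O2, cells labelled shSC at 1% O2, and shSC cells at 20% O2. The study's title concerns the regulation of hypoxia-inducible factors (HIFs) by CHD4, the ATPase of the nucleosome remodelling complex NuRD. The labels give no hairpin sequence and do not say whether cells were pools or clones, or whether replicates came from cultures grown apart. Each p-value is thus set against the variation among these 8 libraries alone, and that variation may be technical. Values are normalised read counts, meaning reads scaled within each library by a single factor with no correction for transcript length, so levels are compared between libraries and not between genes.

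The libraries held 24947627 to 31903585 reads assigned to genes, and the label accounted for most of the variation, since the first principal component separated the labels and took 88.8% of the variance. The level of CHD4 itself was not lower under its hairpin label: it averaged 293.0 ± 8.64 in shCHD4 and 278.9 ± 1.08 in shSC libraries at 1% O2, and 299.0 ± 7.90 in shCHD4 and 298.6 ± 0.47 in shSC libraries at 20% O2 (SD, n = 2 each). Label differences are therefore those of libraries labelled shCHD4 and are not read as effects of less CHD4. Of 10 standard HIF targets, all 10 were higher at 1% O2 under both labels, with a median log2 difference of 1.86 under shCHD4 and 1.84 under shSC. Of all genes tested, 12.3% were called higher at 1% O2 under shCHD4 and 17.4% under shSC. The oxygen effect on 5 of the 10 HIF targets was lower under shCHD4 by the interaction (median -0.25, limma). At 1% O2, 7 of these 10 were lower in shCHD4 than in shSC libraries. The all-gene shares were 2.14% for a lower interaction and 39.2% for a lower level in shCHD4 libraries at 1% O2. Of 10 inflammatory genes, all 10 were at least 2-fold lower in shCHD4 than in shSC libraries at each oxygen level, with medians of -6.45 at 1% O2 and -6.52 at 20% O2. Of all genes tested, 8.56% were called lower by at least 2-fold at 1% O2 and 8.07% at 20% O2. The part of the inflammatory genes in the differences described here was not tested. The genes taken to mark this line, VIM, CD44, CAV1, AXL, MSN, ZEB1 and EGFR, were expressed in every group. Of 7 genes listed as low or absent in it, ESR1, PGR and CDH1 had group means of at most 0.22, while EPCAM (4.50 to 6.95), GATA3 (8.59 to 14.5), ERBB2 (36.8 to 53.7) and KRT19 (31.8 to 129.6) were detected. Of 11 markers of other cell types, 9 were in the table and 3 passed the filter on low values. Of these, COL1A1, a fibroblast collagen, averaged 32.4 in shCHD4 and 22.4 in shSC libraries at 1% O2, and 29.2 in shCHD4 and 20.1 in shSC libraries at 20% O2, and PDGFRB was also called higher in shCHD4 libraries at each oxygen level, while PECAM1 was not called. LUM, under the filter, averaged 1.115 in shCHD4 and 0.26 in shSC libraries at 1% O2, while DCN and COL1A2, which also mark fibroblasts, averaged at most 0.087 in a group and PTPRC, a blood cell marker, at most 0.59. COL1A1 and PDGFRB thus move with the label, while LUM was set side by side at 1% O2 only and its difference was not tested. The part of COL1A1, PDGFRB and LUM in the label differences was not tested.

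Promoter sequence was examined for the elements that these factors bind, and the stretches shown are those that hold a full match. RefSeq promoter windows (build GRCh38.p14, not the build of the table) were found for 10 of 10 genes, in 21 windows because several genes have more than 1 annotated start, and the 250 bases upstream of each start were searched on both strands. The core of the C/EBP-ATF response element, spelled TGATGNAA, was present in 4 of the 21 member windows, 1 each of ATF3, CEBPG, CHAC1 and JDP2. It was found in 3.14% of all 35116 windows. The cAMP response element TGACGTCA was present in 1 of the 21 member windows, that of PPP1R15A, and in 1.65% of all windows. This element reads the same on both strands. In the lines below, each on the plus strand, capitals mark the match.
ATF3, chr1:212565205-212565234: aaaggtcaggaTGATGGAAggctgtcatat
JDP2, chr14:75427992-75428021: tatatagccggggcTGATGCAAcccgtccc
CEBPG, chr19:33374060-33374089: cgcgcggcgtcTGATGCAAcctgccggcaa
CHAC1, chr15:40953251-40953280: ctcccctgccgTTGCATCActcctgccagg
PPP1R15A, chr19:48872352-48872381: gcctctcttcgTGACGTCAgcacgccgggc
The match began 191 bases before the start in ATF3, 16 in JDP2, 42 in CEBPG, 209 in CHAC1, where it lies on the opposite strand, and 58 in PPP1R15A. The C/EBP core TTGCNNAA was found in 2 of the 21 member windows, of ATF5 and PPP1R15A, and in 9.05% of all windows. The HIF core ACGTG was found in 2 of the 21 member windows, both of ATF4, and in 18.5% of all windows. GCGTG was found in 10 of the 21 member windows, of CEBPB, CEBPG, CHAC1, DDIT3, JDP2, PPP1R15A and TRIB3, and in 32.2% of all windows. The windows of ATF4 overlap and hold the same ACGTG site, and those of TRIB3 and of DDIT3 also overlap. Window counts are thus not counts of separate sites. These matches describe letters in the windows and are no evidence of binding.

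Between labels, 9 of the 10 genes were at least 2-fold lower in shCHD4 than in shSC libraries at each oxygen level, and the exception was ATF5. At 1% O2, 39.2% of the 12645 genes tested were called lower and 38.2% higher at a limma false discovery rate of 0.05, and 8.56% were called lower by at least 2-fold. At 20% O2 the shares were 38.6% lower, 37.0% higher and 8.07% lower by at least 2-fold. The median log2 difference of the 10 genes was -2.05 at 1% O2 and -2.46 at 20% O2, against -0.0067 and -0.0091 over all genes. Differences are on the log2(value + 0.5) scale, folds are on the same scale, and intervals are 95% intervals from the limma fit, not adjusted for the number of genes. Fewer cells expressing a gene and less RNA per cell cannot be told apart in such libraries.

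**Figure D1:**
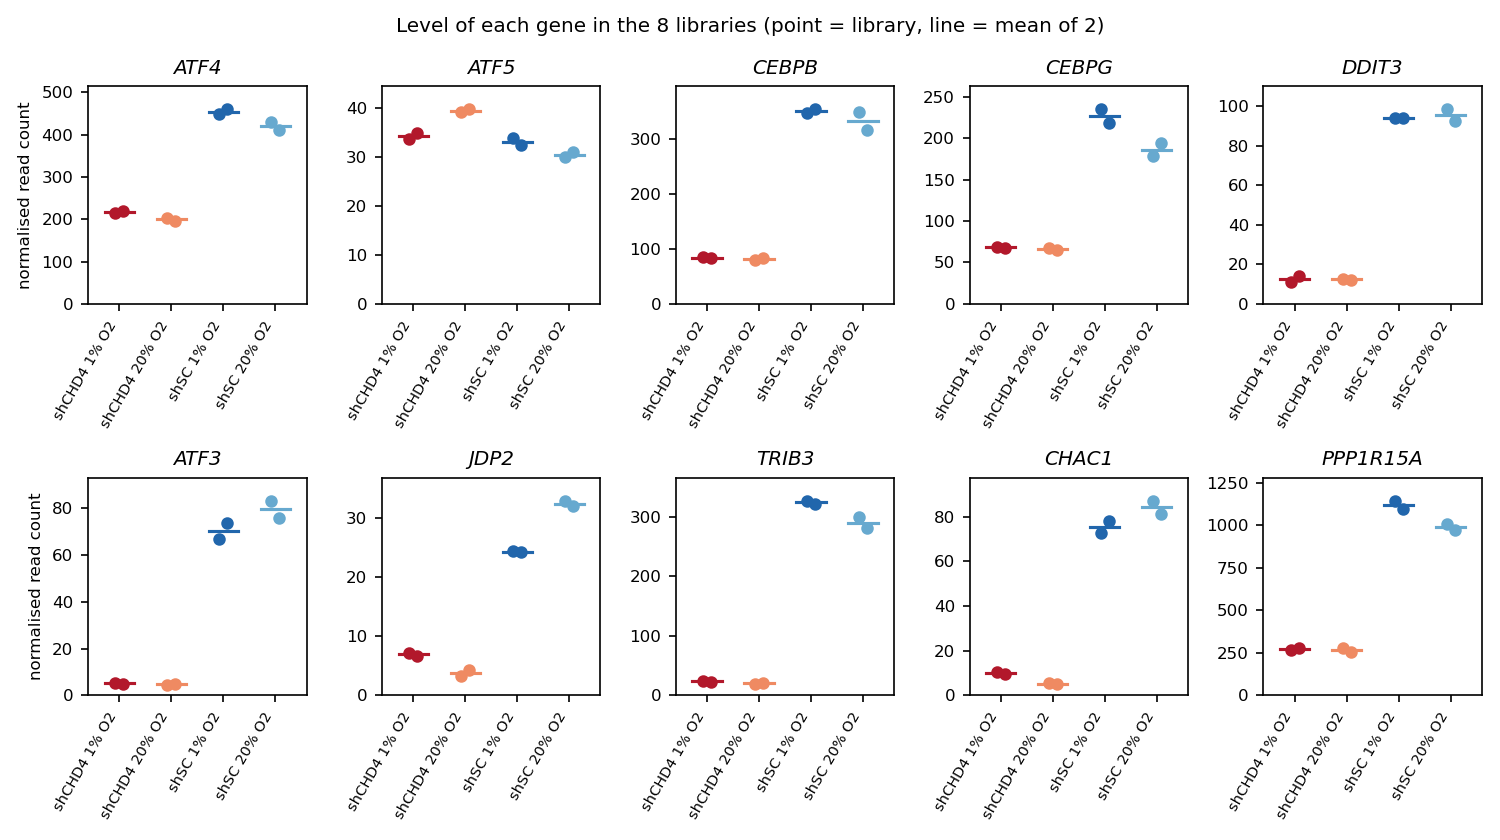
Level of each of the 10 genes, in normalised read counts on an axis starting at 0, in the 8 libraries. Points are libraries and horizontal lines are group means (n = 2). In 9 panels both shCHD4 groups lie below both shSC groups, and in the ATF5 panel the shCHD4 libraries at 20% O2 (39.2 and 39.8) are the highest.

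ATF4 itself had 214.5 and 220.4 normalised read counts in shCHD4 libraries at 1% O2, 203.6 and 195.4 in shCHD4 libraries at 20% O2, 448.1 and 459.7 in shSC libraries at 1% O2, and 429.3 and 410.0 in shSC libraries at 20% O2. Every shCHD4 library lay below every shSC library, and within each label both 1% O2 libraries lay above both 20% O2 libraries. The level was 2.08-fold lower in shCHD4 than in shSC libraries at 1% O2 (interval 1.96 to 2.22) and 2.10-fold lower at 20% O2 (interval 1.97 to 2.24). This was the smallest label difference among the 9 genes that were lower, and it was nearly the same at both oxygen levels. Each library held between 5440 and 13680 ATF4 reads.

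ATF5, a second stress-induced factor whose messenger RNA is also translated better when eIF2alpha is phosphorylated, did not follow this pattern. It had 33.6 and 35.0 normalised read counts in shCHD4 libraries at 1% O2, 39.2 and 39.8 in shCHD4 libraries at 20% O2, 33.8 and 32.4 in shSC libraries at 1% O2, and 29.96 and 31.0 in shSC libraries at 20% O2. The labels overlapped at 1% O2, where the log2 difference was 0.051 (interval -0.076 to 0.178). At 20% O2 both shCHD4 libraries were above both shSC libraries, by 1.29-fold (interval 1.18 to 1.41). ATF5 is overlapped on the opposite strand by NUP62 and IL4I1 in GENCODE, and whether counting used the strand is not stated, so reads of these genes may be mixed. The same holds for CEBPB with its antisense transcript CEBPB-AS1, for JDP2 with an antisense transcript, and for DDIT3, while ATF4 has 4 processed pseudogenes that could share reads with it.

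The C/EBP proteins are the partners with which ATF4 binds DNA. CEBPB, a leucine zipper factor of acute-phase and differentiation programmes, had 85.1 and 83.6 normalised read counts in shCHD4 libraries at 1% O2, 79.0 and 83.0 in shCHD4 libraries at 20% O2, 347.9 and 354.2 in shSC libraries at 1% O2, and 348.5 and 316.9 in shSC libraries at 20% O2. The label groups were far apart, while the oxygen groups overlapped under shSC. The level was 4.14-fold lower in shCHD4 than in shSC libraries at 1% O2 (interval 3.86 to 4.45) and 4.09-fold lower at 20% O2 (interval 3.80 to 4.39).

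CEBPG, which lacks an activation domain of its own and acts as a heterodimer partner, had 68.4 and 67.8 normalised read counts in shCHD4 libraries at 1% O2, 67.7 and 65.2 in shCHD4 libraries at 20% O2, 234.8 and 218.6 in shSC libraries at 1% O2, and 177.9 and 194.2 in shSC libraries at 20% O2. The shCHD4 libraries were within a few counts of each other, and the shSC libraries were higher at 1% than at 20% O2. The level was 3.31-fold lower in shCHD4 than in shSC libraries at 1% O2 (interval 3.06 to 3.57) and 2.79-fold lower at 20% O2 (interval 2.58 to 3.01).

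DDIT3, also known as CHOP, is a C/EBP-like factor that ATF4 induces and that promotes cell death in prolonged stress. It had 10.9 and 13.9 normalised read counts in shCHD4 libraries at 1% O2, 12.6 and 12.2 in shCHD4 libraries at 20% O2, 94.1 and 94.1 in shSC libraries at 1% O2, and 98.4 and 92.3 in shSC libraries at 20% O2. The oxygen groups overlapped under both labels, and the labels did not overlap. The level was 7.39-fold lower in shCHD4 than in shSC libraries at 1% O2 (interval 6.56 to 8.32) and 7.43-fold lower at 20% O2 (interval 6.60 to 8.37). DDIT3 is overlapped on the opposite strand by MARS and MBD6 in GENCODE, and MARS is one of the tRNA synthetase genes of the pathway.

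ATF3, a repressor-type leucine zipper factor induced by many stresses, had 5.46 and 4.99 normalised read counts in shCHD4 libraries at 1% O2, 4.42 and 4.93 in shCHD4 libraries at 20% O2, 66.8 and 73.8 in shSC libraries at 1% O2, and 83.1 and 75.9 in shSC libraries at 20% O2. The labels did not overlap, and each library held at least 118 ATF3 reads. The level was 12.4-fold lower in shCHD4 than in shSC libraries at 1% O2 (interval 10.97 to 13.9) and 15.5-fold lower at 20% O2 (interval 13.7 to 17.4).

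JDP2, a Jun dimerisation protein closely related to ATF3 that represses AP-1 sites, had 7.11 and 6.72 normalised read counts in shCHD4 libraries at 1% O2, 3.26 and 4.24 in shCHD4 libraries at 20% O2, 24.3 and 24.2 in shSC libraries at 1% O2, and 32.9 and 31.97 in shSC libraries at 20% O2. None of the 4 groups overlapped another, and the oxygen groups stood in opposite order under the 2 labels. The level was 3.34-fold lower in shCHD4 than in shSC libraries at 1% O2 (interval 2.89 to 3.86) and 7.80-fold lower at 20% O2 (interval 6.75 to 9.02). The lowest library held 87 JDP2 reads.

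TRIB3 is a pseudokinase induced by ATF4 and DDIT3 that restrains ATF4 activity in a feedback loop. It had 24.4 and 22.3 normalised read counts in shCHD4 libraries at 1% O2, 19.6 and 20.5 in shCHD4 libraries at 20% O2, 327.1 and 322.5 in shSC libraries at 1% O2, and 300.4 and 280.6 in shSC libraries at 20% O2. The labels were more than 10-fold apart in each case, and under both labels the 1% O2 libraries were the higher ones. The level was 13.7-fold lower in shCHD4 than in shSC libraries at 1% O2 (interval 12.6 to 14.8) and 14.1-fold lower at 20% O2 (interval 13.1 to 15.3). Its relatives split: TRIB1 was also lower in shCHD4 libraries, with a log2 difference of -1.132 at 1% O2 and -0.94 at 20% O2, while TRIB2 was higher, by 1.72 and 1.37.

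CHAC1, an enzyme that degrades glutathione and lies downstream of ATF4, ATF3 and DDIT3, had 10.2 and 9.48 normalised read counts in shCHD4 libraries at 1% O2, 5.54 and 4.90 in shCHD4 libraries at 20% O2, 72.6 and 78.3 in shSC libraries at 1% O2, and 87.1 and 81.3 in shSC libraries at 20% O2. As for JDP2, no group overlapped another and the oxygen groups stood in opposite order under the labels. The level was 7.34-fold lower in shCHD4 than in shSC libraries at 1% O2 (interval 6.57 to 8.20) and 14.8-fold lower at 20% O2 (interval 13.3 to 16.6).

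PPP1R15A, also known as GADD34, brings a phosphatase to eIF2alpha and so ends the response. It had 264.3 and 279.5 normalised read counts in shCHD4 libraries at 1% O2, 276.7 and 253.1 in shCHD4 libraries at 20% O2, 1145 and 1099 in shSC libraries at 1% O2, and 1011 and 972.9 in shSC libraries at 20% O2. The oxygen groups overlapped under shCHD4 and were apart under shSC. The level was 4.12-fold lower in shCHD4 than in shSC libraries at 1% O2 (interval 3.84 to 4.42) and 3.74-fold lower at 20% O2 (interval 3.49 to 4.01).

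**Figure D2:**
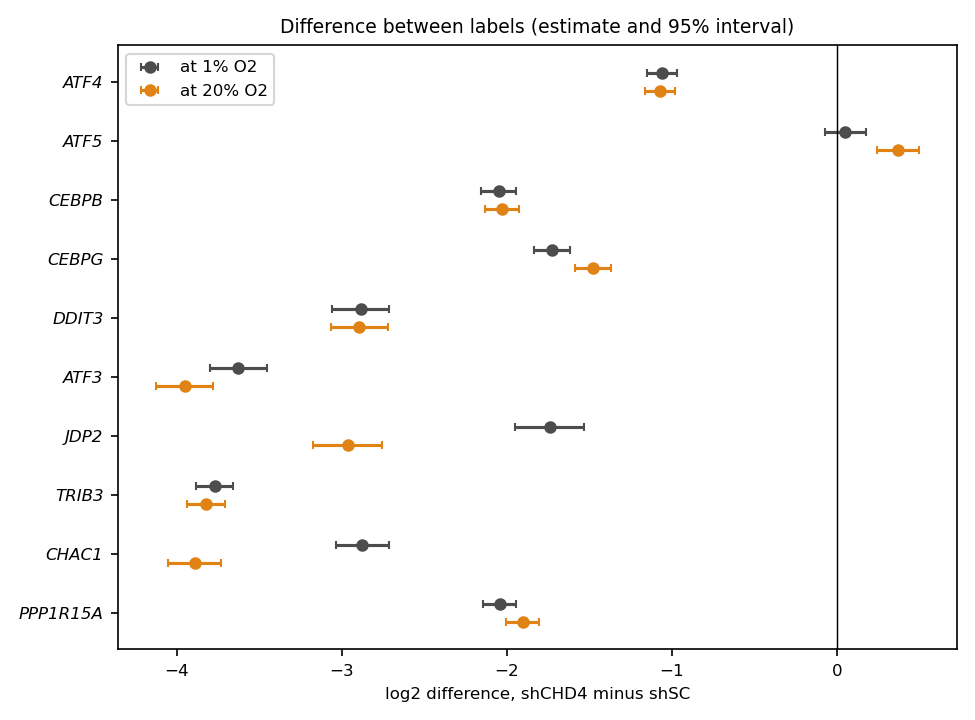
Log2 difference of shCHD4 minus shSC libraries for each gene, at 1% and at 20% O2, with 95% intervals from the limma fit. The differences run from -3.77 for TRIB3 to 0.051 for ATF5 at 1% O2, and from -3.95 for ATF3 to 0.37 for ATF5 at 20% O2.

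In order of the log2 label difference at 20% O2, ATF3 (-3.95), CHAC1 (-3.89) and TRIB3 (-3.82) came first, with intervals that overlap. JDP2 (-2.96) and DDIT3 (-2.89) followed and overlap each other, then CEBPB at -2.03, PPP1R15A at -1.90, CEBPG at -1.48 and ATF4 at -1.07. The induced factors and effectors other than PPP1R15A thus differed more than ATF4 and its partners at 20% O2, whereas at 1% O2 JDP2 (-1.74) was level with CEBPG (-1.73). For comparison, the median log2 label difference of the nearest tested genes on the chromosome, 40 for each member and 24 for TRIB3, lay between -0.35 and 0.42 at 1% O2 and between -0.34 and 0.42 at 20% O2.

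Differences between oxygen levels stayed under 2-fold for all 10 genes. Under shCHD4, 4 genes were higher and 1 was lower at 1% than at 20% O2 (limma, adjusted over all genes), against backgrounds of 12.3% of tested genes higher and 10.7% lower. CHAC1 averaged 9.86 ± 0.54 at 1% O2 and 5.22 ± 0.45 at 20% O2 (SD, n = 2 each), a 1.81-fold rise with a log2 difference of 0.86 ± 0.076 (SE, limma adjusted p = 1.75e-07). JDP2 averaged 6.91 ± 0.28 at 1% O2 and 3.75 ± 0.70 at 20% O2 (SD, n = 2 each), a 1.76-fold rise with a log2 difference of 0.81 ± 0.099 (SE, limma adjusted p = 1.18e-05). These were the only changes above 1.5-fold among the 10 genes under either label.

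The other calls under shCHD4 were small. TRIB3 was higher at 1% O2 by 0.21 on the log2 scale (limma adjusted p = 0.00934), ATF4 was higher by 0.12 (limma adjusted p = 0.0446), and ATF5 had a log2 difference of -0.20 (limma adjusted p = 0.0233). ATF3 (0.15, limma adjusted p = 0.210), CEBPB (0.059, 0.411), PPP1R15A (0.038, 0.599), CEBPG (0.037, 0.643) and DDIT3 (-0.0094, 0.949) did not pass. Without a variance trend TRIB3 (limma adjusted p = 0.0606) and ATF4 (0.142) were not called. DESeq2 on the recovered reads did not call ATF4 (adjusted p = 0.0609) or ATF5 (0.0744). For ATF4 the call was also lost under quantile normalization (limma adjusted p = 0.0664) and without the filter on low values (0.0889). The calls of ATF4 and ATF5 were lost on leaving out any one of the 4 shCHD4 libraries, and that of TRIB3 without replicate 1 of shCHD4 at either oxygen level. The log2 differences kept their direction: ATF4 had 0.095 to 0.15 over all alternatives (adjusted p up to 0.256), ATF5 -0.23 to -0.17 (up to 0.185) and TRIB3 0.15 to 0.27 (up to 0.157).

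Under shSC, 4 genes were higher and 1 was lower at 1% O2, against backgrounds of 17.4% higher and 17.9% lower. CEBPG averaged 226.7 ± 11.5 at 1% O2 and 186.1 ± 11.6 at 20% O2 (SD, n = 2 each), a 1.22-fold rise with a log2 difference of 0.28 ± 0.052 (SE, limma adjusted p = 0.00039). PPP1R15A was higher by 0.18 (limma adjusted p = 0.00777), TRIB3 by 0.16 (limma adjusted p = 0.0274) and ATF4 by 0.11 (limma adjusted p = 0.0484). JDP2 averaged 24.3 ± 0.13 at 1% O2 and 32.4 ± 0.65 at 20% O2 (SD, n = 2 each), which was 1.33-fold lower, with a log2 difference of -0.41 ± 0.099 (SE, limma adjusted p = 0.00364).

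The other 5 members did not pass under shSC: ATF3 (-0.18, limma adjusted p = 0.103), CHAC1 (-0.16, 0.118), ATF5 (0.12, 0.142), CEBPB (0.079, 0.227) and DDIT3 (-0.018, 0.885). With edgeR on the recovered reads ATF3 (adjusted p = 0.0334) and CHAC1 (adjusted p = 0.0462) were called lower, and without replicate 1 of shSC at 20% O2 the difference of CEBPB was 0.15 (limma adjusted p = 0.0349). The ATF4 call was lost on leaving out any 1 library other than replicate 1 of shSC at 20% O2 (limma adjusted p of 0.0567 to 0.221). Its difference was still 0.11 without any one shCHD4 library, and was 0.13, 0.095 and 0.080 without replicate 1 of shSC at 1% O2, replicate 2 at 1% O2 and replicate 2 at 20% O2. The TRIB3 call was lost on leaving out any shSC library other than that one (differences of 0.11 to 0.17, limma adjusted p of 0.0767 to 0.183), and the PPP1R15A call without replicate 1 of shSC at 1% O2 (0.15, limma adjusted p = 0.0762). Quantile normalization also ended the calls of PPP1R15A (0.091, limma adjusted p = 0.123), TRIB3 (0.089, 0.231) and ATF4 (0.073, 0.211). So did a fit without a variance trend (limma adjusted p of 0.0711, 0.0896 and 0.139). Without the filter on low values TRIB3 (limma adjusted p = 0.0633) and ATF4 (0.0837) were not called. CEBPG and JDP2 passed in 20 of 20 alternatives. The median log2 difference of the 10 genes was 0.092 under shCHD4 and 0.096 under shSC, against -0.0037 and -0.011 over all genes.

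**Figure D3:**
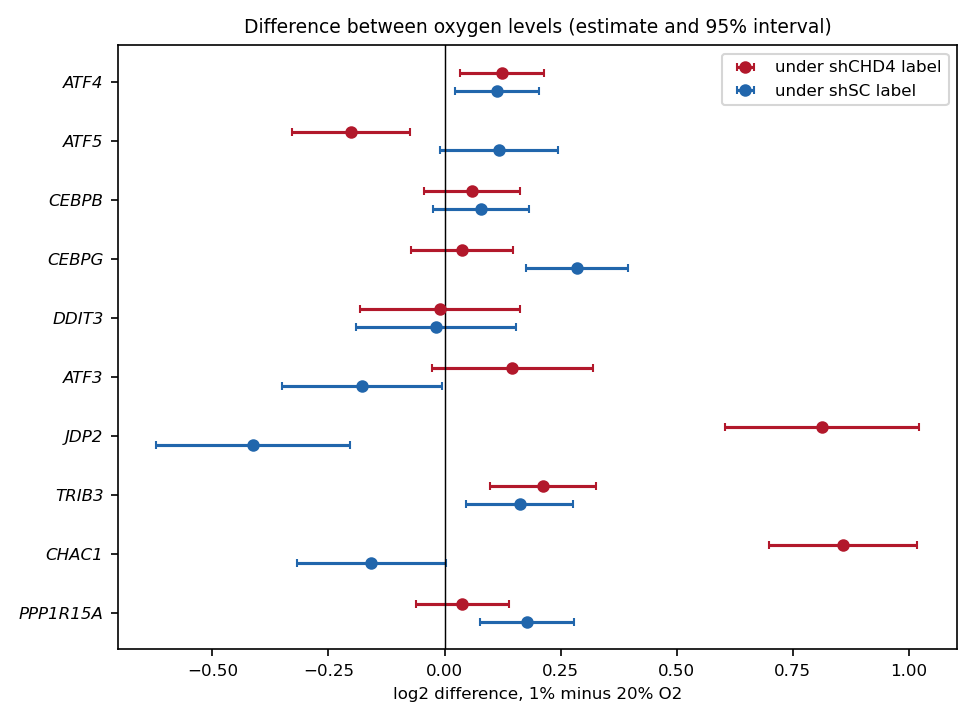
Log2 difference of 1% minus 20% O2 for each gene, under shCHD4 and under shSC, with 95% intervals from the limma fit. JDP2 (0.81 under shCHD4, -0.41 under shSC) and CHAC1 (0.86 and -0.16) stand apart under shCHD4, and most other genes lie near 0.

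The difference between the oxygen effects of the labels was tested as an interaction, the shCHD4 effect minus the shSC effect. Of the 10 genes, 2 had a higher and 1 a lower effect under shCHD4, against backgrounds of 2.21% higher and 2.14% lower. The interaction was 1.22 ± 0.14 on the log2 scale for JDP2 (SE, limma adjusted p = 3.29e-05), 1.02 ± 0.11 for CHAC1 (SE, limma adjusted p = 1.48e-05) and -0.32 ± 0.086 for ATF5 (SE, limma adjusted p = 0.0422). For JDP2 the oxygen difference passed in opposite directions under the labels, and for CHAC1 it passed under shCHD4. Over 20 alternative settings JDP2 kept its interaction between 1.06 and 1.39 and CHAC1 between 0.93 and 1.10, with every adjusted p at or below 0.0153 for JDP2 and 0.0129 for CHAC1. ATF5 passed in 9 of 20 settings, and leaving out any one library other than replicate 2 of shSC at either oxygen level ended its call, with interactions of -0.35 to -0.29 (limma adjusted p of 0.0571 to 0.185).

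The interaction did not pass for CEBPG (-0.25, limma adjusted p = 0.0658), ATF3 (0.32, 0.131), PPP1R15A (-0.14, 0.287), TRIB3 (0.051, 0.782), ATF4 (0.011, 0.947), CEBPB (-0.020, 0.915) and DDIT3 (0.0088, 0.979). For ATF4 the unadjusted 95% interval of the interaction ran from -0.117 to 0.139, and for TRIB3 from -0.111 to 0.213. CEBPG passed without replicate 2 of shSC at 1% O2 (-0.30, limma adjusted p = 0.0486) and without replicate 2 of shSC at 20% O2 (-0.31, limma adjusted p = 0.0230).

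The known target genes of ATF4 were followed in lists that leave out the 10 genes. These lists and those below were chosen with earlier results of these data known, so their counts are no independent support. Of 14 tested genes of amino acid synthesis, 12 were lower and 1 higher in shCHD4 than in shSC libraries at 1% O2. At 20% O2, 13 were lower and 1 higher, with a median log2 difference of -1.17. The shares of all genes tested were 39.2% lower and 38.2% higher at 1% O2, and 38.6% and 37.0% at 20% O2. CTH, the last enzyme of cysteine synthesis, averaged 13.9 in shCHD4 and 175.3 in shSC libraries at 20% O2. ASNS, which makes asparagine and is the classical ATF4 target, averaged 55.4 in shCHD4 and 278.5 in shSC libraries at 20% O2. With oxygen, 11 of 14 were higher at 1% O2 under shCHD4 and 10 under shSC, where 1 was lower. The all-gene shares were 12.3% higher under shCHD4, and 17.4% higher and 17.9% lower under shSC. ASNS led under shCHD4 with 104.8 at 1% O2 and 55.4 at 20% O2 (log2 difference 0.91, limma adjusted p = 1.18e-10). Under shSC it had 416.3 at 1% O2 and 278.5 at 20% O2 (0.58, limma adjusted p = 5.92e-08). The interaction passed as higher for ASNS (0.33, limma adjusted p = 0.00879) and PSPH (0.32, 0.0204) and as lower for GOT1 (-0.31, 0.0442). Of all genes tested, 2.21% had a higher and 2.14% a lower interaction.

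Of 10 tested amino acid transport genes, 9 were lower and 1 higher in shCHD4 libraries at 1% O2. At 20% O2, 10 of 10 were lower, with a median of -0.996. The all-gene shares were 39.2% lower and 38.2% higher at 1% O2, and 38.6% lower at 20% O2. SLC7A11, the cystine carrier, averaged 77.9 in shCHD4 and 472.3 in shSC libraries at 20% O2, and SLC38A2, a neutral amino acid carrier, 508.4 and 1737. The gene that was higher at 1% O2 was SLC7A5, a carrier of large neutral amino acids, by 0.10 on the log2 scale. At 1% O2, 8 of 10 were higher than at 20% O2 under shCHD4, and 5 were higher and 1 lower under shSC. The all-gene shares were 12.3% higher under shCHD4, and 17.4% higher and 17.9% lower under shSC. The interaction passed as higher for SLC38A2 (0.44, limma adjusted p = 0.000858), SLC6A9 (0.48, 0.00704) and SLC7A11 (0.42, 0.0192), and for 2.21% of all genes tested.

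Of 13 tRNA charging genes, aminoacyl-tRNA synthetases and the exportin XPOT, 13 were lower in shCHD4 libraries at 1% O2 and 12 at 20% O2. The median was -0.84 at 20% O2, and 39.2% and 38.6% of all genes were lower at 1% and 20% O2. SARS, the seryl-tRNA synthetase, averaged 208.6 in shCHD4 and 674.5 in shSC libraries at 20% O2. At 1% O2, 8 of 13 were higher than at 20% O2 under shCHD4 and 11 of 13 under shSC. The medians were 0.15 and 0.20, and the all-gene shares higher were 12.3% and 17.4%. By limma, edgeR and DESeq2 0 of 13 passed for the interaction, and 6 were lower at an unadjusted limma p under 0.05. By limma 2.21% of all genes passed as higher and 2.14% as lower.

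Of 20 tested stress and growth targets, 19 were lower in shCHD4 libraries at each oxygen level, with a median of -1.89 at 20% O2. The all-gene shares lower were 39.2% at 1% O2 and 38.6% at 20% O2. DDIT4, an inhibitor of the growth kinase mTORC1, averaged 37.8 in shCHD4 and 585.8 in shSC libraries at 20% O2. SESN2, a leucine sensor that also restrains mTORC1, averaged 9.11 in shCHD4 and 151.6 in shSC libraries, and GDF15, a stress hormone, 6.11 and 163.8. At 1% O2, 14 of 20 were higher and 2 lower than at 20% O2 under shCHD4, and 9 higher and 2 lower under shSC. The all-gene shares were 12.3% higher and 10.7% lower under shCHD4, and 17.4% and 17.9% under shSC. The interaction was higher for 7 of 20, and for 2.21% of all genes tested. DDIT4 led (interaction 2.25, limma adjusted p = 2.67e-13). It averaged 214.6 at 1% O2 and 37.8 at 20% O2 under shCHD4, against 691.5 at 1% O2 and 585.8 at 20% O2 under shSC. VLDLR (1.126, limma adjusted p = 8.95e-07) and VEGFA (0.59, 4.28e-06) followed, and these 3 genes are also known HIF targets. Of the 10 standard HIF targets above, 0 had a higher and 5 a lower interaction past the limma threshold. The count of higher ones was also 0 with edgeR and DESeq2, and 0 at an unadjusted limma p under 0.05. The part of HIFs in these interactions was not tested.

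**Figure D4:**
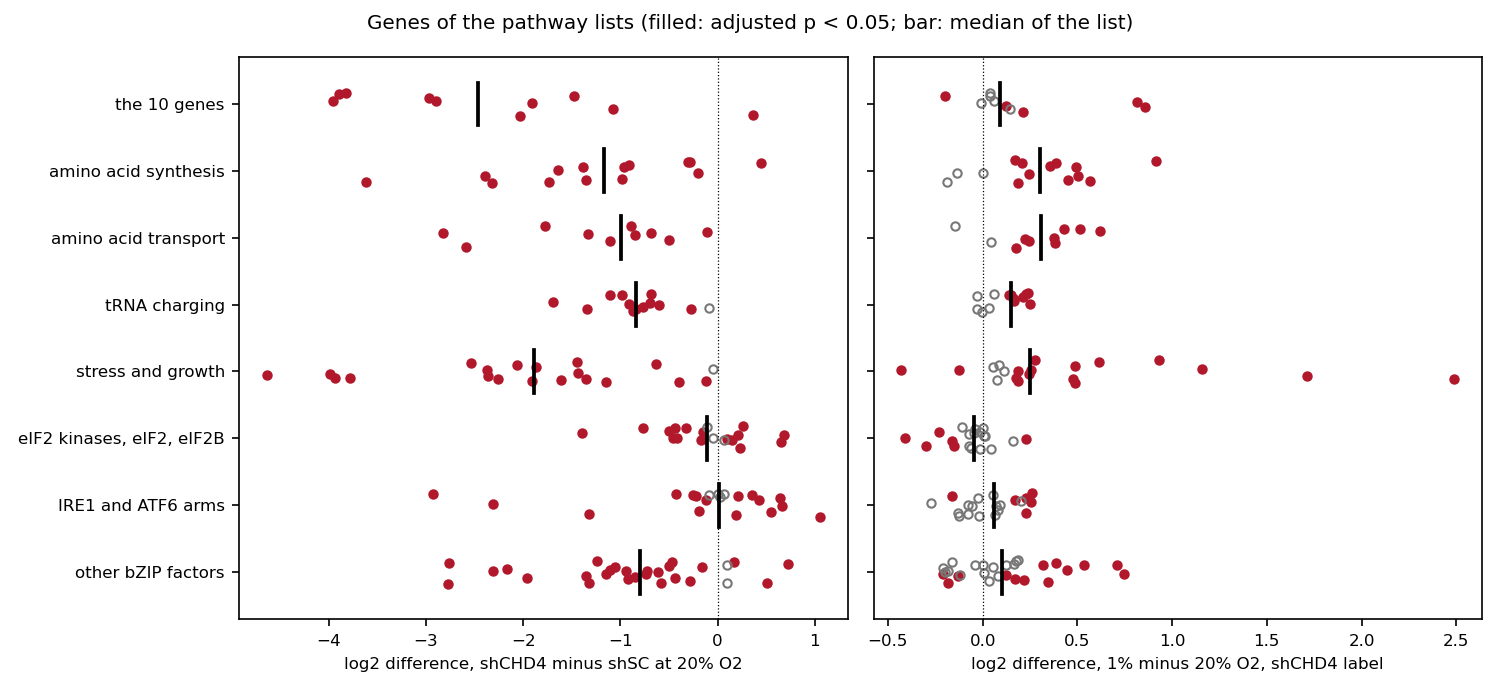
Log2 difference of each tested gene in 8 gene lists, shCHD4 minus shSC at 20% O2 on the left and 1% minus 20% O2 under shCHD4 on the right; filled points passed the limma threshold and bars are list medians. The 4 lists of ATF4 targets have medians of -0.84 to -1.89 on the left. The medians are -0.80 for the other leucine zipper factors, -0.11 for the eIF2alpha list and 0.011 for the IRE1 and ATF6 list.

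The genes upstream of ATF4 and the other arms of the unfolded protein response gave more even counts between labels. Of 19 genes of eIF2alpha kinases, eIF2 subunits and their regulators, 6 were higher and 10 lower in shCHD4 libraries at 1% O2. At 20% O2, 7 were higher and 9 lower, with a median of -0.11. Between labels, 38.2% of all genes tested were higher and 39.2% lower at 1% O2, and 37.0% and 38.6% at 20% O2. EIF2AK3, the PERK kinase of the endoplasmic reticulum, was higher (35.8 in shCHD4 and 22.2 in shSC libraries at 20% O2), as was EIF2AK1, the haem-regulated kinase (log2 difference 0.65). PPP1R15B, the constitutive relative of PPP1R15A, was lower (105.7 in shCHD4 and 278.3 in shSC libraries at 20% O2). At 1% O2, 1 of 19 was higher and 5 lower than at 20% O2 under shCHD4, and 2 were higher and 5 lower under shSC. Over all genes tested 12.3% were higher and 10.7% lower under shCHD4, and 17.4% and 17.9% under shSC.

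Of 20 genes of the IRE1 and ATF6 arms, 7 were higher and 9 lower in shCHD4 libraries at 1% O2, and 8 were higher and 8 lower at 20% O2. Over all genes tested, 38.2% were higher and 39.2% lower at 1% O2, and 37.0% and 38.6% at 20% O2. XBP1, the factor spliced by IRE1, averaged 79.8 in shCHD4 and 396.6 in shSC libraries at 20% O2, and ERN1, which encodes IRE1 itself, 7.26 and 58.3. DNAJC3, a chaperone partner that inhibits eIF2alpha kinases, was higher, with 156.5 in shCHD4 and 75.1 in shSC libraries. At 1% O2, 5 of 20 were higher and 1 lower than at 20% O2 under shCHD4, and 9 were higher and 2 lower under shSC. For oxygen, the all-gene shares were 12.3% higher and 10.7% lower under shCHD4, and 17.4% and 17.9% under shSC.

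Of 28 tested genes listed as other leucine zipper factors, 21 were lower and 3 higher in shCHD4 libraries at 1% O2. At 20% O2, 23 were lower and 3 higher, with a median of -0.80. The all-gene shares were 39.2% lower and 38.2% higher at 1% O2, and 38.6% and 37.0% at 20% O2. One of the 28, CEBPZ, carries the family name but is not a leucine zipper protein, and it was lower at both levels (log2 difference -0.57 at 1% O2 and -0.50 at 20% O2). MAFF, a small Maf protein, averaged 28.6 in shCHD4 and 196.8 in shSC libraries at 20% O2, and NFIL3, a repressor related to the C/EBP proteins, 17.2 and 86.9. CEBPD, a C/EBP factor of the acute phase, averaged 14.5 at 1% O2 and 26.9 at 20% O2 under shSC (log2 difference -0.87, limma adjusted p = 3.31e-06), and 3.08 at 1% O2 and 3.50 at 20% O2 under shCHD4 (limma adjusted p = 0.257). Its interaction was 0.71 (limma adjusted p = 0.00786), and 4 of the 28 had a higher interaction, against 2.21% of all genes tested.

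For each member whose group means spanned at least 1 on the log2 scale, which is all but ATF5, the 2 other genes with the nearest pattern over the 8 libraries were found by the root-mean-square difference of centred log2 values. TRIB3 was nearest to SESN2 (0.080) and NUPR1 (0.10), both on the list of stress targets; SESN2 averaged 11.2, 9.11, 167.8 and 151.6 in shCHD4 at 1% and 20% O2 and shSC at 1% and 20% O2, while NUPR1 rested on 8 and 5 reads in the shCHD4 groups. DDIT3 was nearest to GADD45A (0.092), a growth arrest gene that averaged 49.9 and 51.2 in shCHD4 libraries at 1% and 20% O2 and 420.0 and 414.8 in shSC libraries, and to RHOD (0.12), which had 1 read in all shCHD4 libraries together. ATF4 was nearest to H1FX (0.033) and SDC4 (0.040), CEBPB to HRH1 (0.060) and BCAM (0.067), CEBPG to B3GNT5 (0.060) and CDC42EP3 (0.060), and PPP1R15A to HRH1 (0.054) and IKBKE (0.060). ATF3 was nearest to LY6E (0.12) and FAM84B (0.14), and CHAC1 to HOXB9 (0.17) and FAM84B (0.21). JDP2 had the most distant neighbours, MGC16121 (0.19) and PICK1 (0.22). The measure runs over both labels and all 8 libraries, and the genes set side by side share those libraries and their scaling.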

How the data were processed

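Reads per gene were counted and scaled by the authors. Tools named in the submitters' processing notes are TopHat, featureCounts, edgeR, Picard 1.127, FastQC 0.11.2 and bcl2fastq 2.17, with build hg19; annotation and use of strand were not given. Although named as FPKM, the deposited values are a signal that counts reads scaled by a single factor in each library, without length correction: 100% were whole multiples of 1 step within 0.01 reads, and deposited totals were 975172 to 1076118. The 27 date-like and 2 repeated names were fitted and not named.

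The members and gene lists were chosen with earlier results of these data known. Genes averaging 1 or more (12645 of 19583) were tested two-sided in R 4.3.3 by limma 3.58.1, using log2(value + 0.5), 4 group means and a trended variance (residual degrees of freedom 4, prior 13.9), with Benjamini-Hochberg adjustment over all genes at 0.05. Exact permutation of 2 libraries against 2 has a smallest p of 0.33, so none was run. Alternatives included edgeR 4.0.16 and DESeq2 1.42.0 on the recovered whole reads; edgeR called 2959 and 4490 genes for oxygen under shCHD4 and shSC, 9861 and 9570 for the label at 1% and 20% O2 and 563 for the interaction, against 2903, 4456, 9782, 9559 and 551 by limma.

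All 10 members are named in each comparison. From each other list, genes named are among the 4 with the smallest p past the threshold in a comparison, or the 3 for lists that check identity. The 2 genes nearest in pattern are named for members spanning at least 1 on the log2 scale. Identity and cell type markers, CEBPZ, and SLC7A5 for the label, were named after their values were seen. Libraries with the same replicate number did not deviate together (correlations of -0.12 to 0.12). This cannot show whether the numbers mark pairs, which the labels do not say, and the main fit used no block.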

Additional observations from a re-analysis of the deposited data

Results flagged for a closer look

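The effect of 24 hours at 1% O2 differed between the labels for 3 of the 10 genes, by the interaction in the limma fit over all genes. For JDP2 it was 1.224 on the log2 scale, because the level was higher at 1% O2 under shCHD4 and lower under shSC. For CHAC1 it was 1.015, with a rise under shCHD4 and no call under shSC. For ATF5 it was -0.3175, with a lower level at 1% O2 under shCHD4 and no call under shSC. Both JDP2 and CHAC1 are low in the shCHD4 libraries, where each library held at least 87 reads for JDP2 and 142 for CHAC1. Groups of 2 libraries were too small for a test of single outlying samples.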

How the results depend on the processing

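Each of 50 results, the 10 genes in 5 comparisons, was recomputed under 20 alternatives. Of the 1000 values 945 stayed on the same side of the threshold, and 50 kept direction and were no longer past it. A further 5 newly passed, and 0 changed sign while called. Differences not called could change sign among the 945, as for DDIT3 and oxygen under shCHD4 (-0.17 to 0.16). ATF4 passed for oxygen in 10 of 20 alternatives under shCHD4 and 8 of 20 under shSC (adjusted p up to 0.256 and 0.221). Without the filter on low values, 1920 genes passed for oxygen under shCHD4 and 155 for the interaction. For oxygen under shSC, 3 of the 10 genes and 3775 of all genes then passed. Without a variance trend 3 of the 10 and 1815 of all genes passed for oxygen under shCHD4. Under shSC these were 2 of the 10 and 3642 of all genes, and 155 genes passed for the interaction. Quantile normalization left 2 of the 10 for oxygen under shSC, while 4352 of all genes passed, against 4456 in the main fit. DESeq2 left 3 of the 10 for oxygen under shCHD4, and 1970 of all genes. The cause was not tested. Leaving out 1 library at a time gave 2 to 5 of the 10 genes for oxygen under shCHD4 (2 without replicate 1 of shCHD4 at 1% or 20% O2, 3 without replicate 2 of either), 2 to 6 under shSC (2 without replicate 1 at 1% O2, 3 without replicate 2 at either level) and 2 to 4 for the interaction. Over all genes the ranges were 1326 to 3468 for oxygen under shCHD4, 3024 to 4347 under shSC, 8940 to 9945 and 8797 to 9588 for the label at 1% and 20% O2, and 245 to 994 for the interaction, the lowest without replicate 2 of shCHD4 at 1% O2 and the highest without replicate 1 of shSC at 20% O2. With the replicate number as a block, 4 and 4 of the 10 passed for oxygen under shCHD4 and shSC and 2 for the interaction. Of all genes, 2795, 4370 and 536 passed with this block. A crossed pairing, added after seeing the data, gave the same counts of the 10 genes. Where leaving out a library left 1 in a group, that library was assumed to vary like the other groups. Rescaling moved the median of all genes by under 0.1, but single small differences moved by a large part of their size. With quantile normalization the oxygen difference under shSC went from 0.18 to 0.091 for PPP1R15A, from 0.16 to 0.089 for TRIB3 and from 0.11 to 0.073 for ATF4. With 2 libraries a group, small oxygen differences are at the limit of what can be resolved.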
